A study of Homo sapiens with 12 samples.

Results

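The genes described here are XBP1 and 42 other genes that serve protein folding, export and degradation at the endoplasmic reticulum (ER). They were chosen by symbol from a list of 43 names. All 43 were found among the 20531 genes of the deposited tables, and all 43 passed the filter on low counts in every comparison. Their message was measured by RNAseq in SKBR-3, an established breast carcinoma line that is HER2+ and lacks the estrogen receptor, kept in RPMI with serum. Cells were transfected with a control pool of non-targeting (NT) siRNA or with siRNA against FOXA1. They were then treated with DMSO or with 300 nM lapatinib, an inhibitor of the HER2 and EGFR kinases, for 24 h. The 4 groups of 3 libraries were therefore NT siRNA with DMSO, NT siRNA with lapatinib, FOXA1 siRNA with DMSO and FOXA1 siRNA with lapatinib. The labels give 48 h of siRNA before the drug, all groups were transfected, and the siRNA was a pool against each target in a single cell line. The question was whether the ER genes follow XBP1 itself when HER2 is inhibited and when FOXA1 is depleted.

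As background, unfolded protein in the ER lumen is sensed by IRE1 (ERN1), PERK (EIF2AK3) and ATF6. IRE1 cuts the XBP1 mRNA, and the spliced form encodes a transcription factor that drives genes for chaperones, protein translocation, vesicle budding and ER-associated degradation. ATF6 is released from the membrane by proteolysis and binds ER stress response elements (ERSE), while PERK lowers translation and favors ATF4. XBP1 is highly expressed in luminal breast epithelium. The counts are per gene and do not separate spliced from unspliced XBP1 mRNA, so they measure the amount of message and not IRE1 activity.

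The expected counts of a library, which are estimated reads and need not be whole, summed to between 25749578 and 32271850. FOXA1, the target of the siRNA, had normalized counts of 8308 to 13175 in the 6 NT siRNA libraries and of 1160 to 2384 in the 6 FOXA1 siRNA libraries, with no overlap. It was 6.18-fold lower in DMSO (edgeR, adjusted p = 4.55e-06) and 6.46-fold lower in lapatinib (edgeR, adjusted p = 6.1e-06). The 6 luminal and HER2 markers summed to between 12361 and 19427 TPM per library, with the highest sums in NT siRNA with lapatinib. They did not move together. From DMSO to lapatinib under NT siRNA, ERBB2 went from 2826 to 3493 TPM up to 5838 to 6105, and GRB7 also rose. EPCAM went from 280.3 to 300.4 TPM down to 176.1 to 187.6, while KRT8, KRT18 and KRT19 overlapped. The 7 markers of other cell types or of estrogen receptor-positive cells summed to between 20.3 and 47.2 TPM. Of these, PTPRC, CD3E, PECAM1 and COL3A1 stayed under 10 normalized counts, ESR1 reached 43.1, and CD68 gave 14.8 to 42.5 TPM. COL1A1 had 269.8 to 520.5 normalized counts (2.74 to 5.58 TPM). Unlike the sum, it was lower with lapatinib, at 472.6 to 520.5 in NT siRNA with DMSO and 269.8 to 377.7 with lapatinib. The second sum was 20.3 to 34.2 TPM in the DMSO libraries and 31.5 to 47.2 TPM in the lapatinib libraries, and its part in the results was not tested. Replicate 2 of each group stood apart: pairs with it differed by a chi-square per degree of freedom of 12.7 to 18.5, and pairs without it by 3.75 to 5.94. The labels do not say that replicates were separate cultures, so p-values measure the spread between these libraries, which may be technical. In bulk RNA, a lower value can stand for fewer cells that express a gene or for less message per cell, which cannot be told apart.

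XBP1 rose with lapatinib and fell with FOXA1 siRNA, by more than 2-fold in all 4 comparisons. Normalized counts (counts scaled to the average library depth with TMM factors) of XBP1 were 25520, 28530 and 27829 in NT siRNA with DMSO and 69169, 59071 and 75800 in NT siRNA with lapatinib. After FOXA1 depletion, the DMSO libraries had 9457, 10992 and 11105 and the lapatinib libraries 21725, 22090 and 27217. Only 1 library of FOXA1 siRNA with lapatinib came within the range of NT siRNA with DMSO, and the other pairs of groups did not overlap. Lapatinib raised XBP1 2.53-fold under NT siRNA (log2 fold change 1.34 ± 0.09 SE, edgeR, adjusted p = 1.05e-05) and 2.26-fold under FOXA1 siRNA (log2 fold change 1.18 ± 0.10, edgeR, adjusted p = 2.74e-05). FOXA1 siRNA lowered it 2.57-fold in DMSO (log2 fold change -1.36 ± 0.07, edgeR, adjusted p = 1.36e-05) and 2.89-fold in lapatinib (log2 fold change -1.53 ± 0.11, edgeR, adjusted p = 3.1e-05). The difference between both lapatinib responses was -0.15 ± 0.15 on the log2 scale, with a 95% interval of -0.43 to 0.14 (edgeR, adjusted p = 0.628). A weaker or a slightly stronger response after FOXA1 depletion both lay within that interval.

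**Figure D1:**
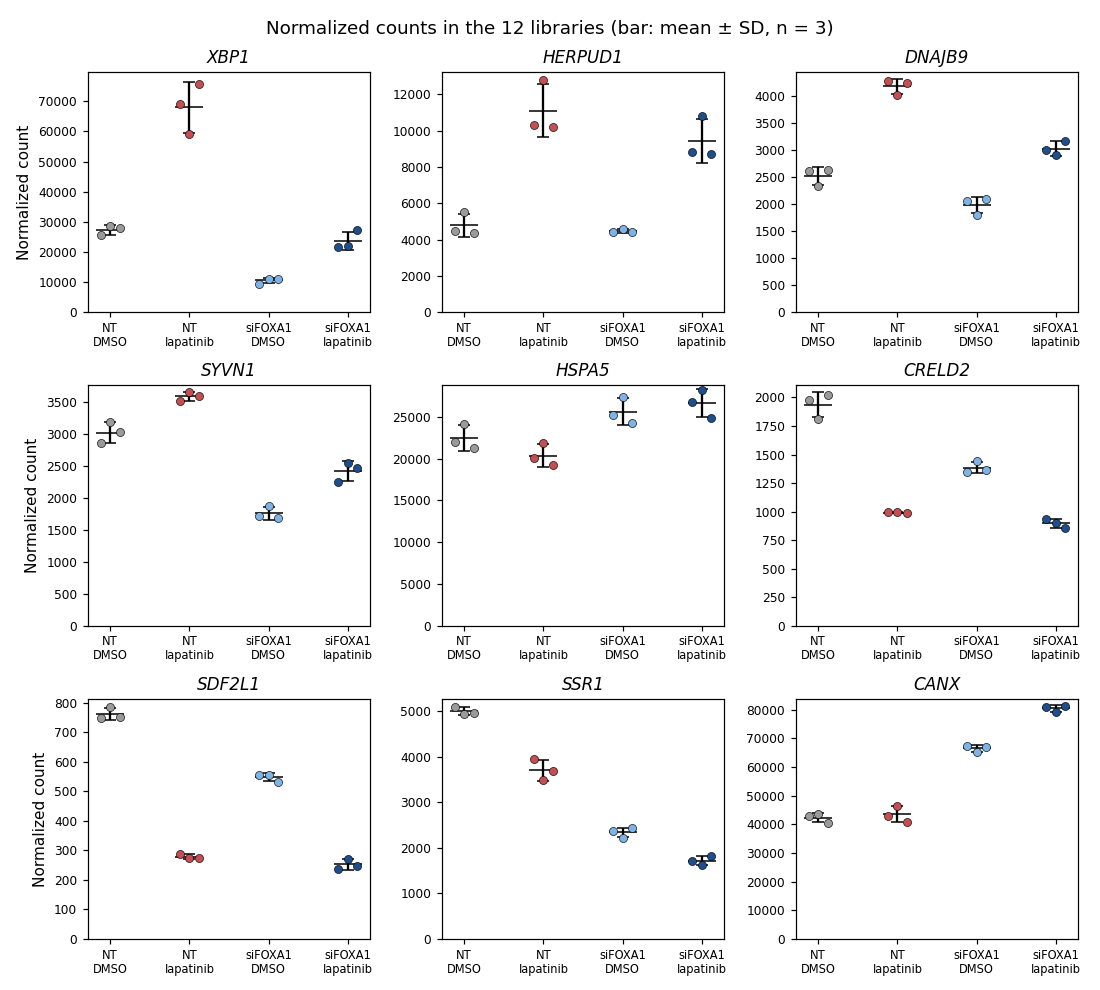
Normalized counts (vertical axis, linear and starting at 0) of 9 genes in the 12 libraries, with 1 point per library and the mean ± SD of each group of 3. XBP1 rose with lapatinib and fell with FOXA1 siRNA, while CRELD2 and SDF2L1 fell with lapatinib, SSR1 fell with both, and CANX and HSPA5 rose with FOXA1 siRNA.

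Per transcript length, XBP1 was among the most abundant members. Its TPM (transcripts per length, scaled to a fixed total) was 978.8 ± 79.0 (SD, n = 3) in NT siRNA with DMSO, below only the protein disulfide isomerase gene P4HB at 1555 ± 41.2. It ranked first in NT siRNA with lapatinib at 2404 ± 270.8 TPM, the seventh in FOXA1 siRNA with DMSO at 379.5 ± 33.3 TPM, and the fourth in FOXA1 siRNA with lapatinib at 838.6 ± 103.8 TPM. At the other end, IRE1 itself (ERN1) had group means of 4.93 to 8.04 TPM, ERO1LB of 2.45 to 4.27 TPM and KDELR3 of 0.433 to 1.96 TPM.

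The sequences upstream of the members were searched for elements of the ER stress response, to set beside the responses below. The 250 bases before each annotated start (GRCh38.p14) were available for 39 of the 43 genes, and PDIA3, SRPR, SEC24D and KDELR2 had no entry. A gene could have several starts, and 51 were searched for the 39 genes. The matches given below for CANX, PDIA6 and TXNDC5 precede a start inside the gene and not its outermost one. Members are counted per gene, whereas the percentages are per promoter. The ERSE, which is CCAAT and CCACG with 9 bases of any kind between, on either strand, was found upstream of 9 members (XBP1, HSPA5, HSP90B1, CALR, CANX, CRELD2, PDIA6, ERO1LB and SERP1) and in 0.0744% of all 34943 promoters. ERSE-II, which is ATTGG and CCACG with 1 base between, was found upstream of HYOU1, SDF2L1 and HERPUD1 and in 0.0515% of promoters. The UPRE core, TGACGTGG, was found upstream of HYOU1, TXNDC5 and KDELR3 and in 0.615% of promoters, and in HYOU1 it overlapped an ERSE-II match. The forkhead motif GTAAACA, on either strand, matched in none of the 39 and in 2.98% of promoters. A match describes letters only and is no evidence of binding. The 6 sequences below, picked after the values were seen, carry the same elements and precede genes that rose (XBP1, HERPUD1), fell (CRELD2, SDF2L1, HYOU1) or did not pass the test (HSPA5) with lapatinib under NT siRNA. Each is printed 5′ to 3′ on the strand of its gene and ends at the base before the gene start. Capitals mark the fixed letters of ERSE or ERSE-II, which read as CGTGG before ATTGG or CCAAT where the element lies on the opposite strand.
XBP1, chr22:28800570-28800819, minus strand: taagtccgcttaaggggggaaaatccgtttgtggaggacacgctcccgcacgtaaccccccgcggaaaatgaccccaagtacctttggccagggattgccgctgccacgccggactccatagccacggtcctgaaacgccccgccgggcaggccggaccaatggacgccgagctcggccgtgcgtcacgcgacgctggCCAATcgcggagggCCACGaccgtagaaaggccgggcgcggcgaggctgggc
HERPUD1, chr16:56931892-56932141, plus strand: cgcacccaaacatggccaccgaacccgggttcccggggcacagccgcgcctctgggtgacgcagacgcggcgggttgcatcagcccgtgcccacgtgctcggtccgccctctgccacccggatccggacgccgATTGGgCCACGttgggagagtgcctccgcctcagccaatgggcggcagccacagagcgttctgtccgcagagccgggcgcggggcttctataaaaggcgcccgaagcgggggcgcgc
CRELD2, chr22:49918384-49918633, plus strand: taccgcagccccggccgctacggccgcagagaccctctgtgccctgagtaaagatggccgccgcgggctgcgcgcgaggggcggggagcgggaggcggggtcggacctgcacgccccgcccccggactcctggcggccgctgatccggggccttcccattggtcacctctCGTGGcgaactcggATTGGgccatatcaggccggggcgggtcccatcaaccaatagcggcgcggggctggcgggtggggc
SDF2L1, chr22:21642052-21642301, plus strand: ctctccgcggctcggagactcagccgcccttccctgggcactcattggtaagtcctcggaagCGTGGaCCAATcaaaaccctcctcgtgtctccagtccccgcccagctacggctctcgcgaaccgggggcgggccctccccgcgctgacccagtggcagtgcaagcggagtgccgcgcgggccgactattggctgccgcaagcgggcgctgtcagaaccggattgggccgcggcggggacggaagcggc
HYOU1, chr11:119057206-119057455, minus strand: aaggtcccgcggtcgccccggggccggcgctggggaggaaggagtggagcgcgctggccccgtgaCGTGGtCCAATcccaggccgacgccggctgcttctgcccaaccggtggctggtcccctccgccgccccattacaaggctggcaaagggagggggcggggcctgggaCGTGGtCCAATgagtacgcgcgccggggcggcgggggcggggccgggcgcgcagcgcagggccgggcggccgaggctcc
HSPA5, chr9:125241344-125241593, minus strand: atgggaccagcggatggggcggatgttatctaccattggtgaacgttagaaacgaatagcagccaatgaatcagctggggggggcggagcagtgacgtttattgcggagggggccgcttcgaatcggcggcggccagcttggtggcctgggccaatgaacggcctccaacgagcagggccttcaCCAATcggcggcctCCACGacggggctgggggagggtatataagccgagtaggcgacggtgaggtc

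Most members passed the test with lapatinib, but not in 1 direction. Under NT siRNA, 19 rose, 17 fell and 7 did not pass (edgeR, adjusted p under 0.05), in a comparison in which 59.7% of all 13713 genes tested passed, 30.5% upward and 29.2% downward. Under FOXA1 siRNA, 21 rose, 17 fell and 5 did not pass, where 58.2% of all genes passed, 29.0% upward and 29.1% downward. The median log2 fold change of the members was 0.06 under NT siRNA and 0.09 under FOXA1 siRNA, beside 0.025 and 0.006 over all genes tested. A fold change of at least 2 (log2 of 1) was reached under NT siRNA by XBP1 and HERPUD1 upward and SDF2L1 downward, where 13.8% of all genes did so, 6.64% upward and 7.13% downward. Without replicate 2 of any group, 20 rose and 18 fell under NT siRNA and 22 rose and 17 fell under FOXA1 siRNA. The share of all genes in those fits is not given, so these counts are not set against a background. Among the large changes under FOXA1 siRNA, XBP1 and HERPUD1 rose and SDF2L1 and KDELR3 fell that far, where 10.1% of genes did, 4.93% upward and 5.12% downward.

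**Figure D2:**
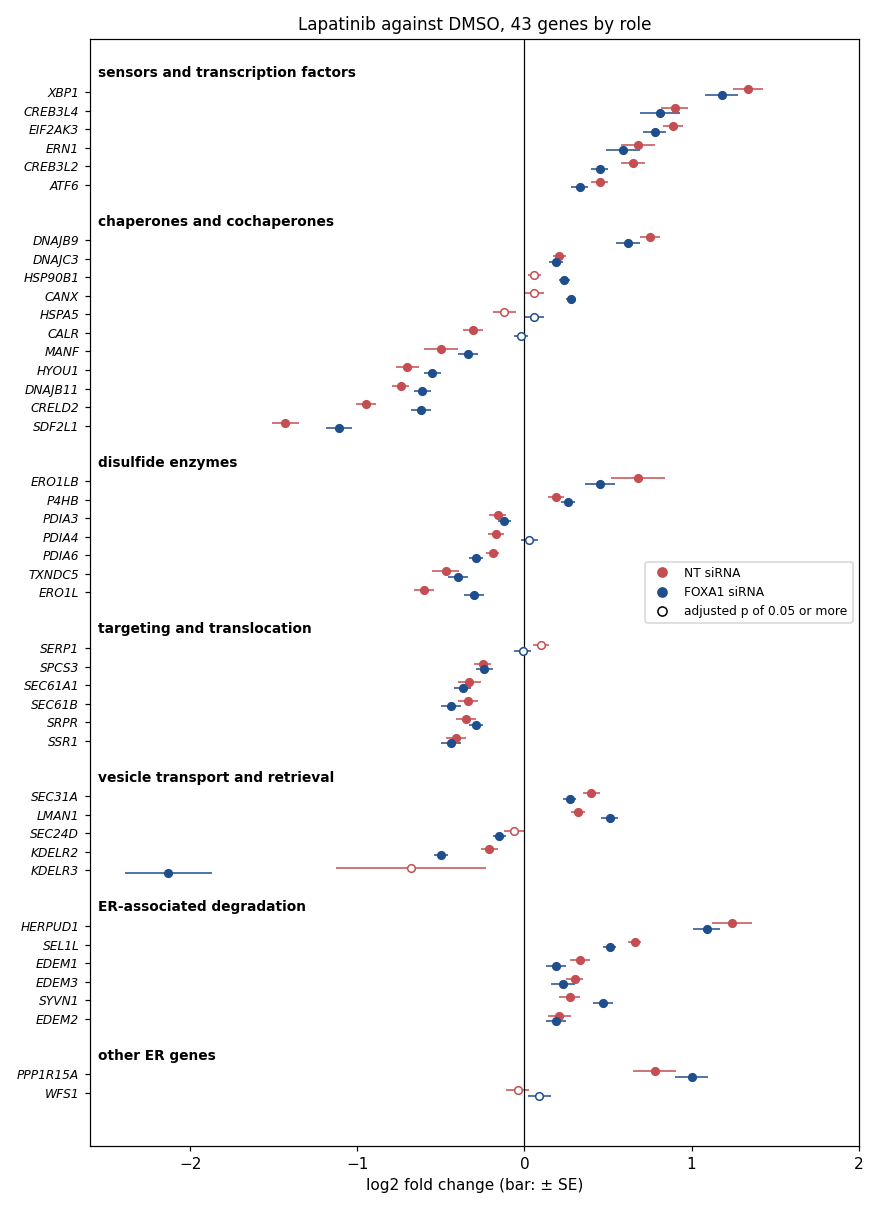
Log2 fold change (horizontal axis, ± SE) of lapatinib against DMSO for the 43 genes under NT siRNA (red) and FOXA1 siRNA (blue), grouped by role and sorted by the NT value, with open circles for an adjusted p of 0.05 or more. Sensors and ER-associated degradation genes lie to the right of 0 and 5 of 6 targeting and translocation genes lie to the left under both siRNAs, while chaperones and disulfide enzymes lie on both sides.

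The 6 sensors and transcription factors rose with lapatinib under both siRNAs. Under NT siRNA their log2 fold changes ran from 0.45 (ATF6) to 1.34 (XBP1), with 0.68 for the IRE1 gene ERN1, 0.89 for the PERK gene EIF2AK3, and 0.65 and 0.90 for CREB3L2 and CREB3L4, which encode membrane-anchored transcription factors related to ATF6. Under FOXA1 siRNA they ran from 0.33 to 1.18. With FOXA1 siRNA the list split. ATF6 had normalized counts of 2606, 2672 and 2591 in NT siRNA with DMSO and of 3101, 3092 and 3267 in FOXA1 siRNA with DMSO, and of 3509, 3425 and 3632 against 3834, 3914 and 4084 in lapatinib. All FOXA1 siRNA libraries were above the matching NT siRNA libraries, by 0.28 ± 0.05 in DMSO (edgeR, adjusted p = 0.00191) and by 0.16 ± 0.05 in lapatinib (edgeR, adjusted p = 0.0285) on the log2 scale. CREB3L4 fell with FOXA1 siRNA by 0.28 in DMSO and by 0.37 in lapatinib, EIF2AK3 and CREB3L2 rose in DMSO only by the test (0.22 and 0.23), and ERN1 passed in neither (-0.07 and -0.17). Several of these smaller calls were lost with any of 3 or 4 of the libraries left out. ATF6 in lapatinib did not pass without NT replicate 1 or 2 or FOXA1 replicate 2 or 3 (edgeR, adjusted p 0.0501 to 0.0935), CREB3L4 in DMSO without NT replicate 2 or 3 or FOXA1 replicate 1 or 2 (0.0671 to 0.107) and in lapatinib without NT replicate 3 or FOXA1 replicate 1 or 2 (0.0558 to 0.0903). The calls in DMSO were also lost for EIF2AK3 without NT replicate 1 or 3 or FOXA1 replicate 3 (0.0529 to 0.0703) and for CREB3L2 without replicate 1 or 3 of either group (0.0557 to 0.0814). The log2 differences in these fits were 0.13 to 0.16 for ATF6, -0.26 to -0.23 and -0.35 to -0.28 for CREB3L4 in DMSO and lapatinib, 0.18 to 0.22 for EIF2AK3 and 0.18 to 0.23 for CREB3L2. With the replicate number as a block, ERN1 passed in lapatinib (-0.17, edgeR, adjusted p = 0.0445).

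The 6 ER-associated degradation genes also rose with lapatinib under both siRNAs. HERPUD1, a membrane protein that organizes the degradation complex, had normalized counts of 4479, 5523 and 4342 in NT siRNA with DMSO, 10316, 12812 and 10213 in NT siRNA with lapatinib, 4410, 4573 and 4395 in FOXA1 siRNA with DMSO, and 8809, 10838 and 8696 in FOXA1 siRNA with lapatinib. The lapatinib libraries were all above the DMSO libraries, whereas the siRNA groups overlapped within each treatment. HERPUD1 rose 2.36-fold under NT siRNA (log2 fold change 1.24 ± 0.12, edgeR, adjusted p = 4.9e-05) and 2.13-fold under FOXA1 siRNA (1.09 ± 0.08, edgeR, adjusted p = 1.89e-05). Its difference between siRNAs was -0.09 ± 0.09 in DMSO and -0.24 ± 0.11 in lapatinib, neither passing (edgeR, adjusted p = 0.469 and 0.11), although the second passed with the replicate block (edgeR, adjusted p = 2.35e-05). Without NT replicate 2 the DMSO difference was 0.04. SYVN1, the ubiquitin ligase HRD1, had normalized counts of 2858, 3178 and 3028 in NT siRNA with DMSO, 3515, 3657 and 3592 in NT siRNA with lapatinib, 1711, 1867 and 1687 in FOXA1 siRNA with DMSO, and 2243, 2549 and 2461 in FOXA1 siRNA with lapatinib. The 4 groups did not overlap. SYVN1 rose with lapatinib 1.21-fold and 1.39-fold under NT and FOXA1 siRNA (edgeR, adjusted p = 0.00366 and 0.000391) and fell with FOXA1 siRNA 1.71-fold in DMSO and 1.49-fold in lapatinib (edgeR, adjusted p = 7.96e-05 and 0.000125). SEL1L, the adaptor of HRD1, rose by 0.66 and 0.51 on the log2 scale with lapatinib under NT and FOXA1 siRNA.

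EDEM1, EDEM2 and EDEM3, mannosidase-like proteins that mark glycoproteins for degradation, rose with lapatinib by log2 fold changes of 0.19 to 0.33. EDEM1 had normalized counts of 2871, 3069 and 3035 in NT siRNA with DMSO, 3524, 3960 and 3654 in NT siRNA with lapatinib, 2579, 2844 and 2779 in FOXA1 siRNA with DMSO, and 3062, 3278 and 2993 in FOXA1 siRNA with lapatinib. It rose by 0.33 ± 0.06 and 0.19 ± 0.06 with lapatinib under NT and FOXA1 siRNA (edgeR, adjusted p = 0.00149 and 0.0167), the latter not without FOXA1 siRNA with DMSO replicate 1 (0.0651). FOXA1 siRNA lowered EDEM1 in lapatinib (-0.26 ± 0.06, edgeR, adjusted p = 0.00741), and in DMSO the groups also did not overlap (-0.12 ± 0.06, edgeR, adjusted p = 0.13, and 0.0102 with the replicate block). EDEM3 went the other way with FOXA1 siRNA. Its normalized counts were 1639, 1668 and 1624 in NT siRNA with DMSO and 2754, 2408 and 2763 in FOXA1 siRNA with DMSO, and 2022, 2040 and 1939 against 3224, 2828 and 3201 in lapatinib, so that all FOXA1 siRNA libraries were higher. EDEM3 rose with FOXA1 siRNA 1.62-fold in DMSO and 1.53-fold in lapatinib (edgeR, adjusted p = 0.000111 and 0.000141), and with lapatinib by 0.30 and 0.23 on the log2 scale. EDEM2 rose by 0.21 and 0.19 with lapatinib and did not pass with FOXA1 siRNA (-0.15 and -0.18), where the replicate block passed both (edgeR, adjusted p = 0.0177 and 0.00224). The EDEM2 call under NT siRNA was lost without replicate 1 or 3 of either group (edgeR, adjusted p 0.0932 to 0.129), with DESeq2 and without the count filter. Under FOXA1 siRNA it was lost without DMSO replicate 2 or 3 or lapatinib replicate 1 or 3 (0.0526 to 0.0615), and that of EDEM3 without DMSO replicate 2 or lapatinib replicate 1 or 3 (0.0629 to 0.0695). SEL1L passed with FOXA1 siRNA in DMSO (0.11), but not without replicate 1 or 3 of either group (0.116 to 0.132), with DESeq2 or without the count filter.

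The chaperones and cochaperones divided with lapatinib. Under NT siRNA, 2 of 11 rose (DNAJB9, DNAJC3), 6 fell (HYOU1, CALR, DNAJB11, SDF2L1, MANF, CRELD2) and HSPA5, HSP90B1 and CANX did not pass. HSPA5, which encodes BiP, the central Hsp70 of the lumen, had normalized counts of 21941, 24178 and 21301 in NT siRNA with DMSO, 20092, 21836 and 19181 in NT siRNA with lapatinib, 25205, 27441 and 24286 in FOXA1 siRNA with DMSO, and 26729, 28262 and 24899 in FOXA1 siRNA with lapatinib. The drug groups overlapped under each siRNA, and the FOXA1 siRNA libraries lay above the NT siRNA libraries of the same treatment. HSPA5 differed with lapatinib by -0.12 ± 0.07 under NT siRNA (edgeR, adjusted p = 0.16, and 0.0173 with the replicate block) and by 0.06 ± 0.06 under FOXA1 siRNA (edgeR, adjusted p = 0.397). It rose with FOXA1 siRNA by 0.20 ± 0.07 in DMSO (edgeR, adjusted p = 0.0382) and by 0.38 ± 0.06 in lapatinib (edgeR, adjusted p = 0.00181), the opposite direction to XBP1. The call in DMSO was lost without NT replicate 1 or 3 or FOXA1 replicate 1 or 2 (edgeR, adjusted p 0.075 to 0.126).

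DNAJB9 (ERdj4), a cochaperone of BiP and a described XBP1 target, went with XBP1 in all 4 comparisons, at smaller size. Its normalized counts were 2612, 2332 and 2627 in NT siRNA with DMSO, 4282, 4025 and 4244 in NT siRNA with lapatinib, 2052, 1805 and 2088 in FOXA1 siRNA with DMSO, and 3001, 2909 and 3171 in FOXA1 siRNA with lapatinib. The 4 groups did not overlap. DNAJB9 rose with lapatinib 1.68-fold under NT siRNA and 1.54-fold under FOXA1 siRNA (edgeR, adjusted p = 1.94e-05 and 0.000108) and fell with FOXA1 siRNA 1.26-fold in DMSO and 1.39-fold in lapatinib (edgeR, adjusted p = 0.00615 and 0.000215). SDF2L1, a lumenal partner of the ER DnaJ proteins, went against XBP1 with the drug. It had normalized counts of 749.6, 785.3 and 751.5 in NT siRNA with DMSO, 287.7, 275.3 and 274.9 in NT siRNA with lapatinib, 555.5, 554.5 and 531.1 in FOXA1 siRNA with DMSO, and 237.6, 272 and 247.7 in FOXA1 siRNA with lapatinib. The 4 groups did not overlap, and the lapatinib groups lay close together. SDF2L1 fell with lapatinib 2.69-fold under NT siRNA (edgeR, adjusted p = 3.85e-06) and 2.15-fold under FOXA1 siRNA (edgeR, adjusted p = 1.83e-05), and 1.38-fold with FOXA1 siRNA in DMSO (edgeR, adjusted p = 0.00077). In lapatinib the siRNA difference was -0.15 ± 0.09 (edgeR, adjusted p = 0.224).

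Other chaperones that fell with lapatinib under both siRNAs were DNAJB11 (ERdj3, -0.74 and -0.61 under NT and FOXA1 siRNA), HYOU1 (an Hsp110-type partner of BiP, -0.70 and -0.55) and the ER stress-induced proteins MANF (-0.50 and -0.34) and CRELD2 (-0.95 and -0.62). DNAJC3, an inhibitor of PERK and cochaperone of BiP, rose by 0.21 and 0.19. With FOXA1 siRNA in DMSO, HSPA5, CANX, DNAJC3 and MANF rose and HYOU1, CALR, DNAJB9, DNAJB11, SDF2L1 and CRELD2 fell. In lapatinib HSPA5, HSP90B1, CANX and MANF rose and DNAJB9 and DNAJB11 fell. CANX, the lectin chaperone calnexin, showed the largest rise of the 43 genes with FOXA1 siRNA in lapatinib. Its normalized counts were 42886, 43786 and 40483 in NT siRNA with DMSO, 43031, 46513 and 40974 in NT siRNA with lapatinib, 67261, 65115 and 67170 in FOXA1 siRNA with DMSO, and 81020, 79079 and 81405 in FOXA1 siRNA with lapatinib. The NT siRNA groups overlapped and every FOXA1 siRNA library was higher. CANX rose with FOXA1 siRNA 1.58-fold in DMSO and 1.84-fold in lapatinib (edgeR, adjusted p = 2.06e-05 and 1.07e-05), and MANF rose by 0.53 and 0.69 on the log2 scale. The call of DNAJC3 in DMSO (0.13) was lost without NT replicate 1 or 3 or any FOXA1 replicate (edgeR, adjusted p 0.0539 to 0.0823). In lapatinib, the replicate block passed DNAJC3, CALR and CRELD2 besides (0.10, -0.09 and -0.15, edgeR, adjusted p = 0.00904, 0.02 and 0.0207).

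**Figure D3:**
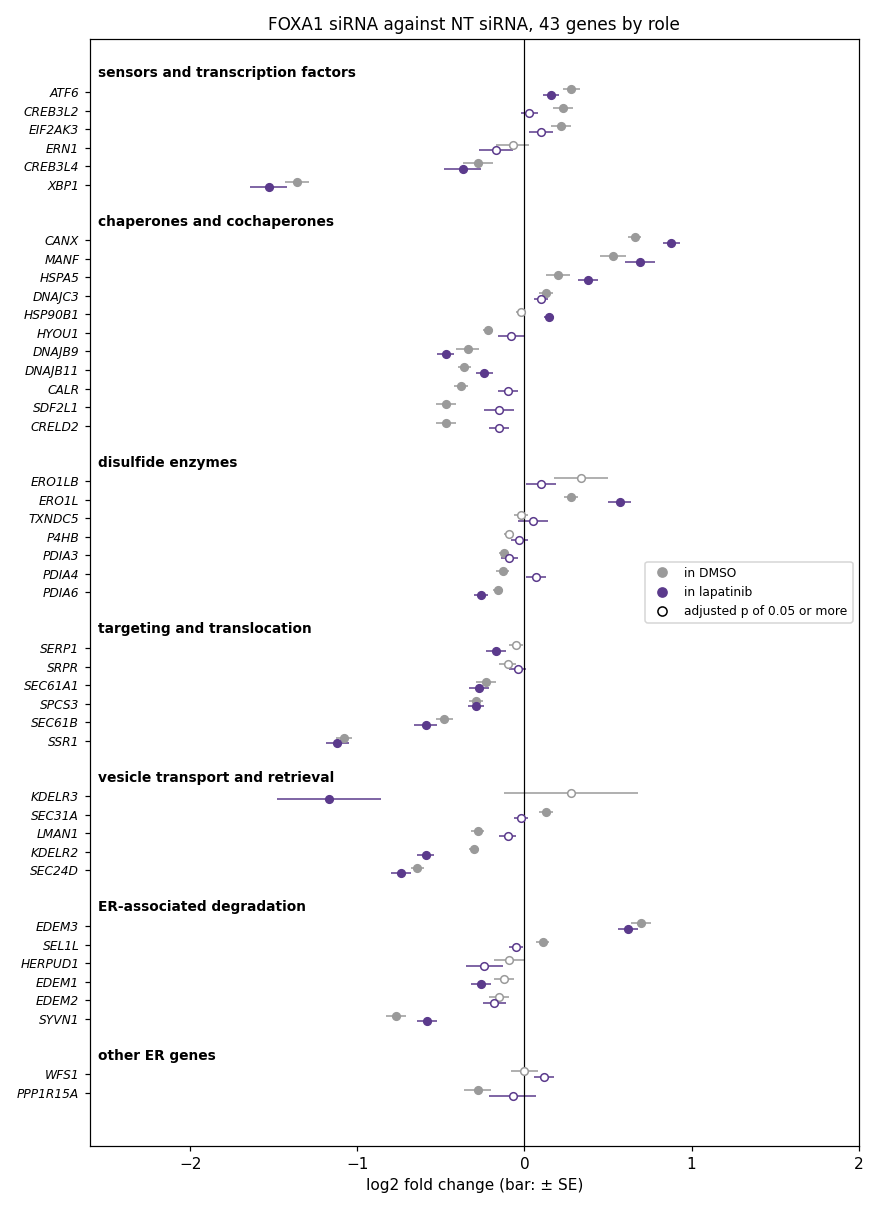
Log2 fold change (horizontal axis, ± SE) of FOXA1 siRNA against NT siRNA for the 43 genes in DMSO (grey) and lapatinib (purple), grouped by role and sorted by the DMSO value, with open circles for an adjusted p of 0.05 or more. XBP1 and SSR1 fell furthest in DMSO, CANX and EDEM3 rose furthest, and all 6 targeting and translocation genes lie below 0.

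With FOXA1 siRNA, more members fell than rose. In DMSO 11 rose, 20 fell and 12 did not pass, where 43.2% of all 13694 genes tested passed, 21.9% upward and 21.3% downward. In lapatinib 7 rose, 15 fell and 21 did not pass, where 44.9% of all 13727 genes passed, 22.7% upward and 22.2% downward. With the replicate number as a block, 12 rose and 24 fell in DMSO, where 30.3% of all genes rose and 30.2% fell, and 9 rose and 22 fell in lapatinib, where 30.6% rose and 31.1% fell. Without replicate 2 of any group, 13 rose and 21 fell in DMSO, and 7 rose and 20 fell in lapatinib, again given without a share over all genes. The median log2 fold change of the members was -0.12 in DMSO and -0.10 in lapatinib, against -0.005 over all genes in each case. Only XBP1 and SSR1 in DMSO, and XBP1, SSR1 and KDELR3 in lapatinib, fell by a log2 of 1 or more, and no member rose that far, where 6.84% of all genes did either in DMSO (4.06% upward, 2.77% downward) and 8.41% in lapatinib (4.51% upward, 3.90% downward). The 11 that rose in DMSO became 5 without NT replicate 1 and 6 without NT replicate 3, FOXA1 replicate 1 or FOXA1 replicate 3. The share of all genes in these smaller fits is not given, so a loss particular to the members is not shown.

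Most of the 6 listed targeting and translocation genes fell with both treatments. With lapatinib 5 fell under each siRNA, where 29.2% (NT) and 29.1% (FOXA1) of all genes fell. With FOXA1 siRNA 4 fell in DMSO and 5 in lapatinib, where 21.3% and 22.2% of all genes fell. Of 25 other translocation and glycosylation genes, 4 rose and 9 fell with lapatinib under NT siRNA. Their median log2 fold change was -0.09, beside -0.34 for the 6. SSR1, the alpha subunit of the translocon-associated protein complex, had normalized counts of 5095, 4941 and 4965 in NT siRNA with DMSO, 3941, 3480 and 3682 in NT siRNA with lapatinib, 2360, 2223 and 2431 in FOXA1 siRNA with DMSO, and 1710, 1626 and 1818 in FOXA1 siRNA with lapatinib. The 4 groups did not overlap. SSR1 fell with FOXA1 siRNA 2.12-fold in DMSO (log2 fold change -1.08 ± 0.05, edgeR, adjusted p = 6.45e-06) and 2.17-fold in lapatinib (-1.12 ± 0.07, edgeR, adjusted p = 1.24e-05). With lapatinib it fell 1.33-fold under NT siRNA and 1.35-fold under FOXA1 siRNA (edgeR, adjusted p = 0.00041 and 0.000385), where XBP1 rose. The translocation channel genes SEC61A1 and SEC61B fell by 0.33 and 0.34 with lapatinib under NT siRNA, the signal recognition particle receptor gene SRPR by 0.35 and the signal peptidase gene SPCS3 by 0.25. With FOXA1 siRNA in lapatinib, SEC61B fell by 0.59, SPCS3 by 0.29 and SEC61A1 by 0.27, while SRPR differed by -0.04 and did not pass. SERP1, a small protein bound to the translocon, passed only with FOXA1 siRNA in lapatinib (-0.17, edgeR, adjusted p = 0.0383), which was lost without NT replicate 1 or 3 or any FOXA1 replicate (0.0612 to 0.126) and with upper-quartile scaling. SEC61A1 in DMSO (-0.23) was lost without NT replicate 1 or 3 (edgeR, adjusted p 0.0534 and 0.0535), and the replicate block passed SRPR there (-0.10, edgeR, adjusted p = 0.0102).

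The disulfide enzymes moved by less than 2-fold throughout. Under NT siRNA, lapatinib raised ERO1LB and P4HB and lowered PDIA3, PDIA4, PDIA6, TXNDC5 and ERO1L. The oxidases ERO1L and ERO1LB, which reoxidize protein disulfide isomerase, went in opposite directions. ERO1L had normalized counts of 2185, 2161 and 2135 in NT siRNA with DMSO, 1366, 1494 and 1339 in NT siRNA with lapatinib, 2610, 2618 and 2554 in FOXA1 siRNA with DMSO, and 2002, 2288 and 1981 in FOXA1 siRNA with lapatinib. The only groups to overlap were NT siRNA with DMSO and FOXA1 siRNA plus lapatinib. ERO1L fell with lapatinib by 0.60 ± 0.06 and 0.30 ± 0.06 under NT and FOXA1 siRNA (edgeR, adjusted p = 5.28e-05 and 0.00344) and rose with FOXA1 siRNA by 0.28 ± 0.04 in DMSO and 0.57 ± 0.07 in lapatinib (edgeR, adjusted p = 0.00133 and 0.00049). ERO1LB had 159.6, 237 and 168.7 normalized counts in NT siRNA with DMSO, 281.7, 321 and 290.3 in NT siRNA with lapatinib, 227.8, 252.1 and 231.3 in FOXA1 siRNA with DMSO, and 323.4, 334.4 and 308.1 in FOXA1 siRNA with lapatinib. Each lapatinib group lay above its DMSO group, and NT replicate 2 was the highest of the DMSO libraries with NT siRNA. ERO1LB rose by 0.68 ± 0.16 and 0.45 ± 0.09 under NT and FOXA1 siRNA (edgeR, adjusted p = 0.00687 and 0.00293). With FOXA1 siRNA in DMSO it differed by 0.34 ± 0.16 (edgeR, adjusted p = 0.125, and 0.0151 with the replicate block). PDIA6, an isomerase, had normalized counts of 13247, 12709 and 13071 in NT siRNA with DMSO, 11400, 11132 and 11111 in NT siRNA with lapatinib, 11645, 11453 and 11478 in FOXA1 siRNA with DMSO, and 9437, 9482 and 9241 in FOXA1 siRNA with lapatinib. The 4 groups did not overlap, and PDIA6 fell in all 4 comparisons, by 0.16 to 0.29 on the log2 scale. P4HB rose with lapatinib by 0.19 and 0.26, and with FOXA1 siRNA in DMSO it passed only with the block (-0.09, edgeR, adjusted p = 0.00928).

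Calls of PDIA3 and PDIA4 were lost in some fits with 1 library fewer, in which the log2 difference ran from -0.16 to -0.08 for PDIA3 and from -0.18 to -0.11 for PDIA4. PDIA3 fell with lapatinib by 0.16 under NT siRNA, but not without DMSO replicate 1 (edgeR, adjusted p = 0.0603), and by 0.12 under FOXA1 siRNA, but not without replicate 1 or 3 of DMSO or 1 or 2 of lapatinib (0.0529 to 0.0922). With FOXA1 siRNA in DMSO it fell by 0.12, but not without replicate 1 of either group (0.052 and 0.0527), and in lapatinib it passed with the block (-0.09, edgeR, adjusted p = 0.017). PDIA4 fell with lapatinib under NT siRNA by 0.17, but not without DMSO replicate 1 or 3 or lapatinib replicate 1 (0.0533 to 0.0684), and with FOXA1 siRNA in DMSO by 0.13, but not without NT replicate 1 or 3 or FOXA1 replicate 1 or 2 (0.0763 to 0.115) or with all 12 libraries in 1 model. TXNDC5, a thioredoxin-domain protein, fell by 0.47 and 0.40 with lapatinib and passed in neither FOXA1 comparison.

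The vesicle genes showed no common direction. SEC31A and SEC24D form the COPII coat of vesicles that leave the ER, LMAN1 is a cargo receptor for glycoproteins, and the KDEL receptors return escaped chaperones. SEC31A had normalized counts of 5461, 5451 and 5690 in NT siRNA with DMSO, 7248, 7003 and 7333 in NT siRNA with lapatinib, 5931, 5915 and 6097 in FOXA1 siRNA with DMSO, and 7110, 7102 and 7236 in FOXA1 siRNA with lapatinib. It rose with lapatinib by 0.40 and 0.27 (edgeR, adjusted p = 0.000127 and 0.000426), and both lapatinib groups overlapped. SEC24D, its partner in the coat, fell with FOXA1 siRNA by 0.64 in DMSO and 0.74 in lapatinib and differed with the drug by -0.06 under NT siRNA, which did not pass, and by -0.15 under FOXA1 siRNA, which did. KDELR2 had normalized counts of 13835, 13551 and 13545 in NT siRNA with DMSO, 11573, 11109 and 12109 in NT siRNA with lapatinib, 11176, 10843 and 11011 in FOXA1 siRNA with DMSO, and 7611, 7877 and 7723 in FOXA1 siRNA with lapatinib. Libraries with both treatments were the lowest. It fell in all 4 comparisons, from 1.16-fold with lapatinib under NT siRNA (edgeR, adjusted p = 0.00496) to 1.51-fold with FOXA1 siRNA in lapatinib (edgeR, adjusted p = 4.43e-05).

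KDELR3 was the least abundant member, and its fold changes rest on few reads. Its normalized counts were 29.6, 74.4 and 24.9 in NT siRNA with DMSO, 20.2, 33.8 and 24.6 in NT siRNA with lapatinib, 57, 56.8 and 41.9 in FOXA1 siRNA with DMSO, and 11.4, 14.4 and 9.21 in FOXA1 siRNA with lapatinib. The last group lay below the other 3, and NT replicate 2 in DMSO was the highest library. With lapatinib under NT siRNA the difference was -0.68 ± 0.45 (edgeR, adjusted p = 0.221). KDELR3 fell 4.37-fold with lapatinib under FOXA1 siRNA (edgeR, adjusted p = 0.000195) and 2.25-fold with FOXA1 siRNA in lapatinib (edgeR, adjusted p = 0.016), the latter not without FOXA1 replicate 1 or 3 (0.0607 and 0.0533) or with all 12 libraries in 1 model. LMAN1 rose with lapatinib by 0.32 and 0.51 and fell with FOXA1 siRNA in DMSO by 0.28, and the block passed it in lapatinib (-0.10, edgeR, adjusted p = 0.0125). The lapatinib difference of SEC24D under FOXA1 siRNA was lost without DMSO replicate 1 or any lapatinib replicate (edgeR, adjusted p 0.0506 to 0.0672). SEC31A passed with FOXA1 siRNA in DMSO (0.13), but not without NT replicate 1 or any FOXA1 replicate (0.0562 to 0.106) or without the count filter.

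Of the 2 remaining genes, PPP1R15A, which encodes the phosphatase subunit GADD34 that reverses the translational block set by PERK, rose with lapatinib. Its normalized counts were 541.8, 554.2 and 510 in NT siRNA with DMSO, 833.3, 1107 and 771.5 in NT siRNA with lapatinib, 445.6, 454 and 410.2 in FOXA1 siRNA with DMSO, and 806.9, 995.6 and 794.2 in FOXA1 siRNA with lapatinib. The lapatinib libraries were all higher, with replicate 2 the highest in both groups, and the rises were 1.71-fold and 1.99-fold under NT and FOXA1 siRNA (edgeR, adjusted p = 0.00111 and 7.84e-05). With FOXA1 siRNA in DMSO it fell by 0.28, but not without NT replicate 1 or FOXA1 replicate 1 or 3 (edgeR, adjusted p 0.0526 to 0.0747) or with all 12 libraries in 1 model. WFS1, an ER membrane protein linked to calcium handling, was the only member that passed in none of these comparisons, with log2 differences of -0.04 to 0.12. With the replicate block it passed with FOXA1 siRNA in lapatinib (0.12, edgeR, adjusted p = 0.0458).

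The lapatinib response differed between siRNAs for 6 members by the interaction test, where 7.19% of all 14012 genes tested passed (3.99% with a higher and 3.20% with a lower response under FOXA1 siRNA). For HSP90B1 (GRP94, the Hsp90 of the lumen), CALR (calreticulin), CANX, CRELD2 and ERO1L the response was higher under FOXA1 siRNA, and for KDELR2 it was lower. HSP90B1 had normalized counts of 37813, 38083 and 38305 in NT siRNA with DMSO, 39032, 39235 and 39044 in NT siRNA with lapatinib, 36964, 37223 and 37134 in FOXA1 siRNA with DMSO, and 43262, 43602 and 43574 in FOXA1 siRNA with lapatinib. The group with both treatments was the highest, and the responses were 0.06 ± 0.04 and 0.24 ± 0.03, a difference of 0.19 ± 0.04 (edgeR, adjusted p = 0.0139). CALR had normalized counts of 22489, 20614 and 22234 in NT siRNA with DMSO, 17569, 16087 and 18254 in NT siRNA with lapatinib, 16727, 16046 and 16933 in FOXA1 siRNA with DMSO, and 16126, 15687 and 17005 in FOXA1 siRNA with lapatinib. Only NT siRNA with DMSO stood apart, and CALR fell with lapatinib by 0.31 under NT siRNA and differed by -0.02 under FOXA1 siRNA (difference 0.31 ± 0.08, edgeR, adjusted p = 0.0303). CRELD2 had normalized counts of 1976, 1813 and 2022 in NT siRNA with DMSO, 993.8, 991.9 and 983.8 in NT siRNA with lapatinib, 1349, 1439 and 1368 in FOXA1 siRNA with DMSO, and 937.1, 901.4 and 857.7 in FOXA1 siRNA with lapatinib. The 4 groups did not overlap, and the fall with lapatinib was 1.93-fold under NT siRNA and 1.53-fold under FOXA1 siRNA (difference 0.34 ± 0.08 on the log2 scale, edgeR, adjusted p = 0.0227). The differences were 0.24 ± 0.07 for CANX, 0.31 ± 0.09 for ERO1L and -0.27 ± 0.05 for KDELR2 (edgeR, adjusted p = 0.0479, 0.0454 and 0.0108).

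The number of interaction calls was sensitive to the fit. With the replicate number as a block, 10 members had a higher and 4 a lower response under FOXA1 siRNA, beside 11.1% and 9.22% of all genes: HSPA5, SDF2L1, PDIA4, LMAN1 and SYVN1 joined the first group (0.20, 0.33, 0.22, 0.20 and 0.21, edgeR, adjusted p = 0.00266, 0.0213, 0.00464, 0.00383 and 0.0146). SEC31A, KDELR3 and SEL1L joined the second (-0.12, -1.51 and -0.15, edgeR, adjusted p = 0.0433, 0.0251 and 0.0239). Without a single library the 5 higher calls became 1 (without NT and DMSO replicate 1, FOXA1 and DMSO replicate 1 or 3, or FOXA1 and lapatinib replicate 1), 2 (NT and DMSO replicate 3, NT and lapatinib replicate 1 or 3, or FOXA1 and DMSO replicate 2) or 3 (NT and DMSO replicate 2, or FOXA1 and lapatinib replicate 2 or 3), and the 1 lower call became 2 without NT and DMSO replicate 2. CANX also did not pass with upper-quartile scaling or with at least 10 counts in every library, and DESeq2 called 8 members in all. Without replicate 2 of any group, 7 were higher and 4 lower. Among these alternative fits, shares over all genes are given for the block only.

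The order of the 4 group means was set beside that of XBP1. To share it, a gene needs a fall with FOXA1 siRNA in DMSO that exceeds its rise with lapatinib under FOXA1 siRNA. It is thus narrower than sharing the directions of XBP1. XBP1 was highest in NT siRNA with lapatinib, then in NT siRNA with DMSO, FOXA1 siRNA with lapatinib and FOXA1 siRNA with DMSO. Of the other 42 members only SYVN1 had this order (2.38%), as did 955 of all 14012 genes tested (6.82%). SERP1 joined it with upper-quartile scaling, and SERP1 or EDEM2 without 1 of 5 single libraries (NT and DMSO replicate 1, FOXA1 and DMSO replicate 3, or any FOXA1 and lapatinib replicate). The most frequent order, in 9 members, put both lapatinib groups above both DMSO groups with NT siRNA higher in each. The means of these 9 went in the directions of XBP1 in all 4 comparisons, and among them DNAJB9 and CREB3L4 passed each test. In 8 members both DMSO groups stood above both lapatinib groups with NT siRNA higher in each. The share of all genes with either order was not counted. An order ignores the spread, and neighbors in it do not always differ.

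A subset of 12 members that are described direct targets of XBP1 (DNAJB9, DNAJB11, DNAJC3, PDIA6, SEC61A1, SSR1, SRPR, SPCS3, SERP1, SEC24D, SEC31A and EDEM1) did not rise together when XBP1 rose. With lapatinib under NT siRNA, 4 rose, 6 fell and 2 did not pass, with a median log2 fold change of -0.12, where 30.5% of all genes rose and 29.2% fell with a median of 0.025. Under FOXA1 siRNA 4 rose, 7 fell and 1 did not pass, with a median of -0.20, where 29.0% of all genes rose and 29.1% fell with a median of 0.006. When XBP1 fell with FOXA1 siRNA, 2 of the 12 rose and 7 fell in DMSO, and 9 fell in lapatinib, where the highest value was that of DNAJC3 (0.10, edgeR, adjusted p = 0.0739), with medians of -0.20 and -0.26. Of all genes, 21.9% rose and 21.3% fell in DMSO and 22.7% rose and 22.2% fell in lapatinib, with a median of -0.005 in each. These comparisons share groups with each other, so their counts are set side by side and not compared by a test.

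The TPM summed over the list lay higher in the lapatinib libraries than in the DMSO libraries of the same siRNA, and under NT siRNA this was so only with XBP1 in the sum. The TPM of the 43 genes summed to 8924, 9412 and 9199 per library in NT siRNA with DMSO, 10363, 9969 and 10603 in NT siRNA with lapatinib, 8187, 8242 and 8290 in FOXA1 siRNA with DMSO, and 8950, 8875 and 9228 in FOXA1 siRNA with lapatinib. NT siRNA with lapatinib stood above the other groups. Without XBP1 the sums were 8031, 8364 and 8204, then 7910, 7858 and 7957, then 7846, 7844 and 7891, and 8177, 8091 and 8269 in the same order of groups, so that NT siRNA with lapatinib lay below its DMSO group in TPM. All listed genes, however, summed to 924228 to 939340 TPM in NT siRNA with DMSO and to 896833 to 905628 with lapatinib. As a share of that total, the mean without XBP1 was 0.88% and 0.878%, and with XBP1 0.985% and 1.14%. Under FOXA1 siRNA the share without XBP1 was 0.847% and 0.901%. Chaperones summed to 3388 ± 76.5 TPM (SD, n = 3) in NT siRNA with DMSO, 2969 ± 49.3 with lapatinib, 3486 ± 16.2 in FOXA1 siRNA with DMSO and 3622 ± 19.7 with lapatinib. CANX alone had means of 558.0, 574.5, 899.8 and 1087 TPM in that order of groups. The calls of the chaperones with FOXA1 siRNA went both ways, so the higher sums do not stand for each of them. ER-associated degradation genes summed to 355 ± 33.9, 588 ± 48.7, 326 ± 3.89 and 512 ± 34.4 TPM in the same order. Targeting and translocation genes summed to 808 to 854, 644 to 685, 663 to 698 and 521 to 558 TPM over the libraries of the groups. The sums are given as a description, and no test was run on them.

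**Figure D4:**
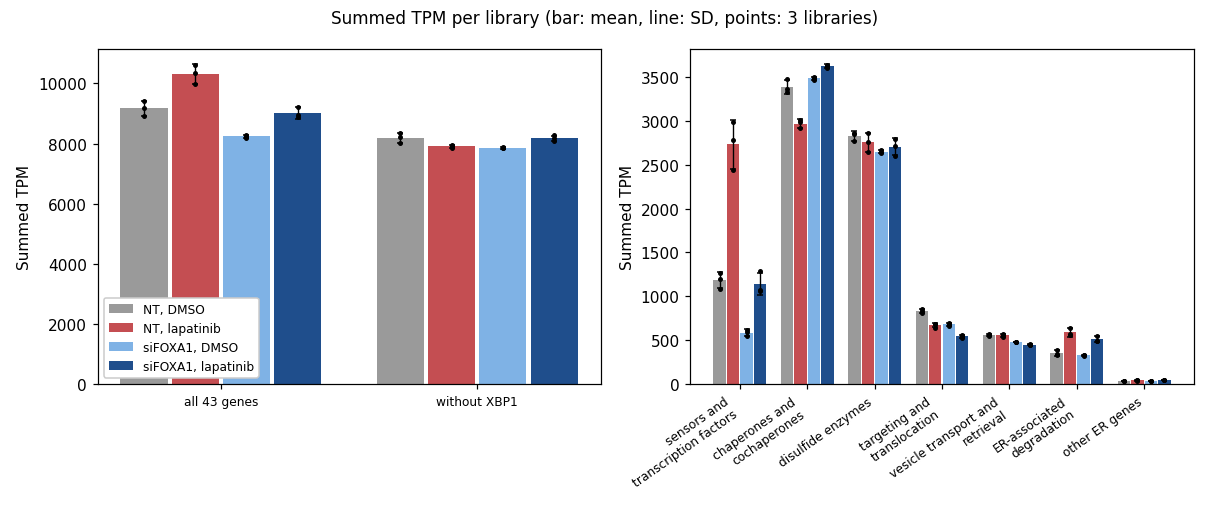
Summed TPM (vertical axis, starting at 0) of all 43 genes and of the 42 without XBP1 (left) and of each role (right) in the 4 groups, with bars for the mean, lines for the SD and points for the 3 libraries. Under NT siRNA the mean sum was 9179 with DMSO and 10312 with lapatinib, and without XBP1 it was 8200 and 7908, while the sum of the ER-associated degradation genes was higher and that of the targeting and translocation genes lower with lapatinib. As a share of the TPM of all listed genes, the sums without XBP1 were 0.88% and 0.878%.

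Other genes of the same pathways were taken from a list of 81, of which 79 were tested. With lapatinib under NT siRNA, 24 rose, 21 fell and 34 did not pass (57.0% called, beside 59.7% of all genes), with a median log2 fold change of -0.03. Of 13 further degradation genes, 4 rose, led by the lectin OS9 (0.77), and 5 fell, led by the conjugating enzyme UBE2G2 (-0.87) and UFD1L (-0.72), a cofactor of the extraction ATPase. Of 25 other translocation and glycosylation genes, 4 rose, among them SRP14 (0.17) and SEC63 (0.15), and 9 fell, led by SRPRB (-0.88), the partner of SRPR, and RPN1 (-0.66), an oligosaccharyltransferase subunit. The calls of SRP14 and SEC63 were lost without any DMSO replicate or lapatinib replicate 1, and that of SRP14 also without lapatinib replicate 3 (edgeR, adjusted p 0.0554 to 0.0998). Of 20 other coat genes, 7 rose, led by the COPI subunits COPA (0.53) and COPB1 (0.52), and 4 fell, led by the COPII genes SEC13 (-0.42) and SEC23B (-0.39). Of 11 other folding genes, 1 rose (SIL1, the exchange factor of BiP, 0.44) and 3 fell, led by PDIA5 (-0.38) and FKBP14 (-0.33). Other stress transducers and PERK arm genes rose, 4 of 5 in each list, and none fell, led by CREB3L1 (2.29 ± 0.26) and MBTPS1 (0.61), the protease that cleaves ATF6, and by CHAC1 (4.01-fold) and DDIT3 (1.95-fold), both downstream of ATF4. With FOXA1 siRNA, 9 of the 79 rose and 31 fell in DMSO (50.6% called, beside 43.2% of all genes), and 8 rose and 35 fell in lapatinib (54.4% called, beside 44.9%), with median log2 fold changes of -0.08 and -0.13. With the replicate block, 14 rose and 37 fell in DMSO, where 30.3% of all genes rose and 30.2% fell. In lapatinib 14 rose and 47 fell with the block, where 30.6% of all genes rose and 31.1% fell. CREB3L1 fell by 1.27 in DMSO and 1.18 in lapatinib (edgeR, adjusted p = 0.0117 and 0.000391), the same directions as XBP1. Of the 5 PERK arm genes, named here after their values were seen, ATF4, ATF3 and TRIB3 fell in DMSO (-0.28, -0.59 and -0.61, edgeR, adjusted p = 0.0218, 0.00191 and 0.00127) and TRIB3 in lapatinib (-0.87, edgeR, adjusted p = 0.00253), while CHAC1 and DDIT3 passed in neither. The call of ATF4 in DMSO was lost without FOXA1 replicate 1 or 3 (edgeR, adjusted p = 0.0754 and 0.0815). With the replicate block, CHAC1 fell in DMSO (-0.32, edgeR, adjusted p = 0.0376) and ATF4 and DDIT3 in lapatinib (-0.35 and -0.33, edgeR, adjusted p = 3.12e-06 and 0.00544).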

How the data were processed

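RNAseq of 12 SKBR-3 libraries was read from 1 table per library. The authors deposited for each gene an expected count (reads estimated by RSEM, per the columns and the processing notes), the TPM, the FPKM and a normalized signal, the expected count scaled to the upper quartile of the library. Only expected counts were tested and TPM used for levels per length, and the normalized signal was read to check the unit. The methods name hg38, STAR and Salmon, while the deposited columns are RSEM's. The notes list R 3.2.2 and DESeq2 1.12.3. The labels name 2 library kits, 1 of them stranded, and the strand setting of the counting is not given in the sources used here, so overlapping genes are uncertain. The methods give 24 h of siRNA before the drug.

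Expected counts, 87.5% to 88.1% of which were whole, were rounded and fitted with edgeR 4.0.16 in R 4.3.3 (quasi-likelihood test, TMM factors, Benjamini-Hochberg adjustment over all genes tested). Each comparison used its own 6 libraries and genes with at least 10 counts in 1 of them, and the interaction all 12. A call needed an adjusted p under 0.05. Standard errors were the log2 fold change divided by the square root of F, and the 95% interval is the normal one. The procedure was tested on simulated data. Members were matched to RefSeq by Entrez ID. Values per library are given for XBP1, HSPA5, DNAJB9, EDEM1, HERPUD1, members that passed the interaction, and in each role the member with the largest rise and fall with lapatinib under NT siRNA and with FOXA1 siRNA in lapatinib. For the other lists, up to 2 called genes per direction were named. The members and lists were chosen with earlier results of these data known.

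Same-numbered libraries of different groups deviated together (18 pairs, mean r 0.393, range 0.244 to 0.627, over 12170 genes), and the mean was -0.185 for different numbers. Deviations were taken from the mean of each group, so the second value follows largely from the first and is no separate evidence. The replicate numbers come from the titles, which do not say what they stand for, and by this check they pair the libraries, so a fit with the replicate number as a block was run beside each comparison. Other alternatives were RLE and upper-quartile scaling, DESeq2 1.42.0, other count filters, all 12 libraries in 1 model, stricter thresholds and leaving out each library. Leaving out replicate 2 of every group was added after seeing the data. Python 3.11.15, pandas 2.3.3 and matplotlib 3.10.9 were used.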

Additional observations from a re-analysis of the deposited data

Results flagged for a closer look

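A tested difference between the siRNAs in the lapatinib response marked 6 members. On the log2 scale, as the response under FOXA1 siRNA minus that under NT siRNA, it was 0.19 for HSP90B1, 0.31 for CALR, 0.24 for CANX, 0.34 for CRELD2, 0.31 for ERO1L and -0.27 for KDELR2 (edgeR quasi-likelihood test with Benjamini-Hochberg adjustment, adjusted p 0.0108 to 0.0479). For HSP90B1, CANX and KDELR2 the libraries with both treatments lay outside the range of the other 9. With 1 library left out in turn, the call of CALR was lost in 8 of 12 fits (adjusted p 0.056 to 0.081), of CANX in 10 (0.0627 to 0.108), of CRELD2 in 6 (0.0569 to 0.0635) and of ERO1L in 10 (0.0546 to 0.112). HSP90B1 and KDELR2 passed in all 12. The cause of these differences was not tested.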

How the results depend on the processing

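Of the values compared under the alternatives, 2706 kept their direction and side of the threshold, 268 lost and 56 gained a call, and 19 changed sign. Many of the lost calls came from the stricter thresholds on the main fit, where a call can only be lost. For the interaction, only XBP1 and members called in the main or the block fit were counted. A log2 fold change of at least 1 left 2 higher and 1 lower member with lapatinib under NT siRNA, 2 and 2 under FOXA1 siRNA, 0 and 2 with FOXA1 siRNA in DMSO, and 0 and 3 in lapatinib. An adjusted p under 0.01 left 5 higher members with FOXA1 siRNA in DMSO and 0 and 0 in the interaction, where edgeR gave 14 members at an unadjusted p under 0.05 and DESeq2 gave 4 at an adjusted p under 0.01. No share over all genes is set beside these counts. For the interaction, DESeq2 gave 2 lower members, the replicate block 10 higher and 4 lower, and leaving out replicate 2 of every group, chosen after seeing the data, 4 lower. The pairing block changed no call of a member besides those given with their blocked values. Upper-quartile scaling gave 2 members with the order of XBP1.

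With each library left out in turn, the members that rose and fell numbered 18 to 20 and 15 to 17 with lapatinib under NT siRNA, 19 to 21 and 15 to 17 under FOXA1 siRNA, 5 to 13 and 16 to 20 with FOXA1 siRNA in DMSO, 6 to 7 and 12 to 19 in lapatinib, and 1 to 5 and 1 to 2 in the interaction, and 1 to 2 members had the order of XBP1. Such ranges show how far the calls move and come without shares over all genes. In these fits, uncalled log2 values changed sign for WFS1 (-0.1 to 0.0026) with lapatinib under NT siRNA and for SERP1 (-0.04 to 0.03), CALR (-0.04 to 0.02) and PDIA4 (-0.0014 to 0.09) under FOXA1 siRNA. With FOXA1 siRNA they did so for HERPUD1 (-0.16 to 0.04) and WFS1 (-0.08 to 0.05) in DMSO, and for TXNDC5 (-0.05 to 0.1), PPP1R15A (-0.19 to 0.1), CREB3L2 (-0.02 to 0.05) and P4HB (-0.06 to 0.02) in lapatinib. Without replicate 2 of every group, ERN1 was 0.03 and HERPUD1 0.01 in DMSO, and with upper-quartile scaling SEC31A was 0.0025 in lapatinib. The cause of these changes was not tested. With 3 libraries a group, calls were lost with 1 library fewer at log2 differences from 0.11 (SEL1L) to 0.37 in size (CREB3L4, -0.37), and at -1.17 for KDELR3, whose low counts limit its values.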
